A study of Gasterosteus aculeatus with 31 samples.

Results

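This report describes 1000 sites of open chromatin that held reads in the brain library of every fish in a threespine stickleback series and yet differed most in level from fish to fish. They were chosen from 102149 peaks by their measured values. A peak had to lie on 1 of the 20 linkage groups other than groupXIX, the sex chromosome, reach at least 1 CPM in every library and average at least 10 CPM, where CPM is the peak's count per 1000000 counts of the library outside groupXIX. Of 89261 peaks on those linkage groups, 23019 averaged at least 10 CPM, 13 of these fell below 1 CPM in some library, and 23006 passed both limits. The 1000 with the highest standard deviation (SD) of log2(CPM + 0.5) over the 31 libraries were kept, 4.35% of those that passed. Of these, 7 read below 2 CPM in some library. The limit of 1 CPM was not set against a background level, so it does not show that a site is open in every fish.

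The libraries are ATAC-seq of the left (13 fish) or right (18 fish) side of the brain of juvenile Gasterosteus aculeatus, offspring of fathers caught in the wild. In a half-sib design, 16 fish (8 males, 8 females) were raised by their fathers, labelled Day 10, and 15 (7 males, 8 females) were hand-reared as orphans, labelled Day 0. All fish of both groups had been through an open-field trial with a simulated attack by a model sculpin before the brain was taken, so no library comes from a fish without that exposure. The leading number of the fish identifier was read as the family. By this reading 8 families were father-reared and 8 orphaned, and 15 of the 16 had a brother and a sister. The labels do not list families, so this is an inference. Which families share a parent is not listed either, so fish called non-siblings below may be half-sibs. Siblings carry neighbouring library numbers, and family and library order cannot be told apart. Total counts ran from 2857578 to 10540612 per library, and the median chosen peak held 33 to 150 counts depending on the library. Each fish is 1 library.

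ATAC-seq uses the Tn5 transposase to cut DNA where chromatin is open, and peaks mark promoters, enhancers and other regulatory sites. In vertebrate brain, many such sites are open in particular types of neurons or glia. Threespine stickleback fathers tend eggs and fry in the nest, which makes paternal care a treatment that can be withheld. Because each library is bulk tissue, a higher share of cells with an open site and more open chromatin per cell cannot be told apart. No gene was assigned to any peak and no sequence is shown, because the annotation at hand belongs to another assembly than the files; for the same reason the brain origin could not be checked against markers. Positions are as the authors' table gives them, and every peak named here spans 400 positions from the start given.

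The chosen peaks had SDs of 0.36 to 2.21 log2 units, with a median of 0.41, against a median of 0.24 over all 23006 peaks that passed the level limits. In raw terms the highest fish stood a median of 3.28-fold above the lowest, with a range of 2.28- to 92.5-fold, against a median of 2.02-fold over all peaks that passed. These values chose the peaks and are given as a description. Most of the peaks were of modest strength: mean CPM had a median of 13.7 and a range of 10.0 to 798, and 15 peaks averaged at least 50 CPM. Counting error, taken as that of independent reads, had a median SD of 0.19 log2 units in chosen peaks and 0.18 over all that passed. As a share of the variance it had a median of 19.9% in chosen peaks, compared with 52.6% over all that passed. That share is divided by the spread used for selection, so its gap follows from the choice. The limit cut a continuous range. Just inside it were peaks at groupVIII 15943181, groupVIII 11841207 and groupX 10925705, and just outside it groupXX 4099417, groupX 7741190 and groupIV 6057474, each with an SD of 0.36.

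Whether levels were graded or stepped was described by 1 measure. The widest step between neighbouring fish, once fish were ordered by level, took a median of 16.2% of a peak's whole range on the log2 scale, near the 17.0% seen over all peaks that passed. In 52 peaks a single step took more than 33.3% of the range. A peak with a low and a high level can fall under that limit, as groupXI 4403191 below does, so 52 is not a count of all stepped peaks. In 30 peaks the SD fell by more than 20% when 1 library was left out. The peak most dependent on 1 fish, groupIV 20043409, read 1.78 CPM in father-reared replicate 16 and 11.9 to 45.5 CPM in the other 30 fish, and its SD fell by 46.4% without that fish. The same fish was the lowest at groupIII 10166340 (2.00 CPM, median 14.3 CPM over all fish), groupIII 5669891 (2.22 CPM, median 14.4 CPM) and groupIII 10133451 (5.34 CPM, median 20.5 CPM). At groupIV 10842840 orphaned replicate 15 read 3.77 CPM, against a median of 15.5 CPM.

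The peaks fell into 2 kinds that vary in different ways. Over the 31 libraries the first principal component held 36.6% of the variance of log2(CPM + 0.5), the second 10.8% and the third 5.73%. Correlations of single peaks with the first component were bimodal: 573 peaks had r of at least 0.5, 404 of them at least 0.8, and only 30 of the 1000 lay between 0.4 and 0.6. The 573 are called the co-varying set and the remaining 427 the other peaks; 281 of the other peaks had r below 0. The split was made after these values were seen. The first component computed from peaks on groupI to groupX and that computed from peaks on the other 10 linkage groups had r = 0.99 over the 31 libraries, so the same fish ranked high or low whichever chromosomes were read. The co-varying set had SDs of up to 0.58, and the 10 peaks with the highest SD were all among the other peaks.

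**Figure D1:**
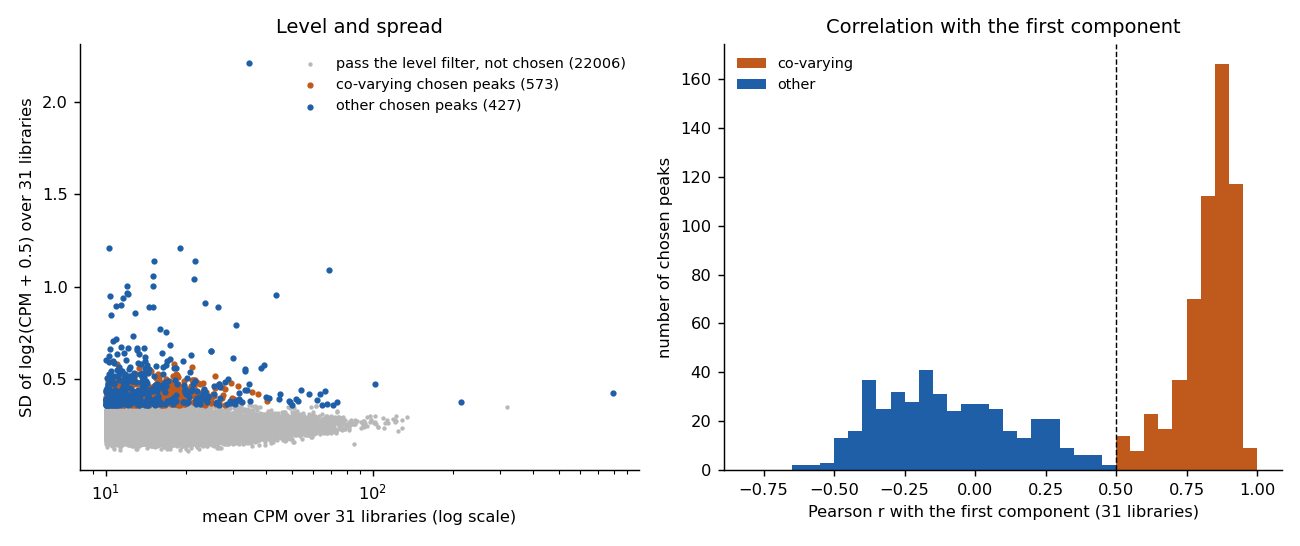
Left, mean CPM (log axis) against the SD of log2(CPM + 0.5) over 31 libraries for the 22006 peaks that passed the level limits and were not chosen (grey), the 573 co-varying peaks (orange) and the 427 other peaks (blue). Right, the number of chosen peaks by their correlation with the first component, with the dashed line at 0.5: a tall group near 0.85 and a broad group around 0 leave few peaks between them.

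The co-varying set rose and fell together. Summed over its 573 peaks, CPM was lowest in orphaned replicate 10, at 5285, and highest in father-reared replicate 10, at 12847, a 2.43-fold range. Father-reared replicate 10 was the highest fish at 204 of the 573 peaks, orphaned replicate 3 at 95, orphaned replicate 14 at 69 and father-reared replicate 9 at 60. At the low end, orphaned replicate 10 was the lowest at 174, father-reared replicate 5 at 84 and orphaned replicate 7 at 63. The other fish were spread between these ends.

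**Figure D2:**
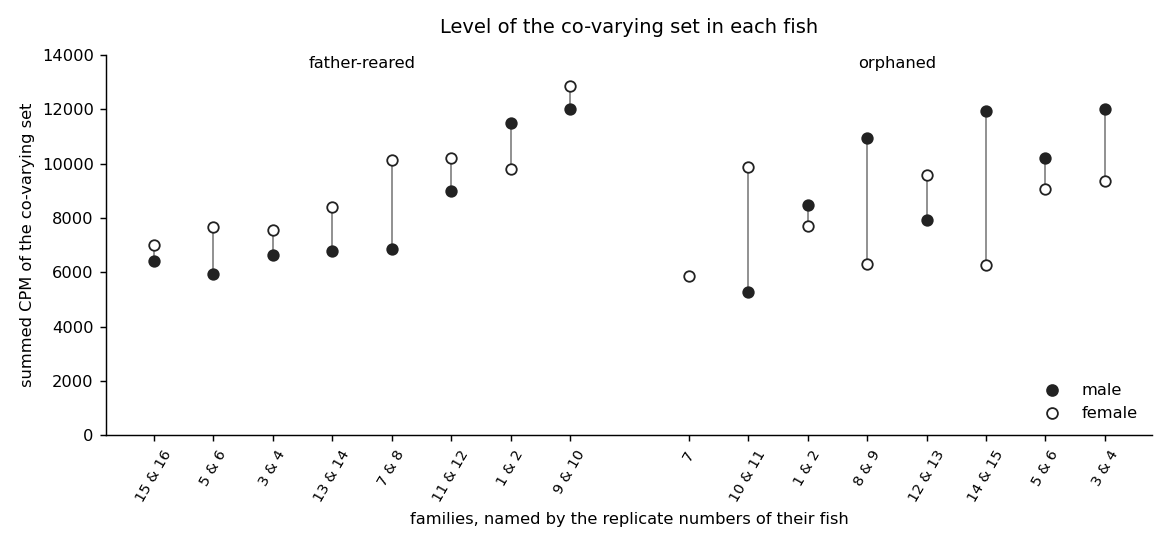
Summed CPM of the 573 co-varying peaks in each of the 31 fish (filled, male; open, female), with families on the horizontal axis in order of their mean within each care group and a line joining siblings. Both care groups cover nearly the whole range, and in several orphaned families brother and sister lie far apart.

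The level of the set covered much the same range in each group of the design. Father-reared fish averaged 8666 ± 2173 CPM (SD, n = 16) and orphaned fish 8717 ± 2146 CPM (SD, n = 15), a gap far smaller than either SD. Males averaged 8789 ± 2445 CPM (SD, n = 15) and females 8598 ± 1850.0 CPM (SD, n = 16). Left sides averaged 9036 ± 2139 CPM (SD, n = 13) and right sides 8441 ± 2139 CPM (SD, n = 18). Over the 3 stretches of 11 library numbers, which stand as candidate batches because the batch of each library is not given, the means were 8799.8, 8909.8 and 8351 CPM. In every one of these splits the ranges overlapped. The sexes stood in opposite order in the 2 care groups. Father-reared females averaged 9198 ± 1928 CPM (SD, n = 8) and father-reared males 8133 ± 2399 CPM (SD, n = 8), with the sister higher in 7 of 8 families. Orphaned females averaged 7998 ± 1671 CPM (SD, n = 8) and orphaned males 9539 ± 2451 CPM (SD, n = 7), with the brother higher in 5 of 7 families. Each of these gaps is smaller than the SDs, which are over fish and do not measure the spread of the brother-sister difference within families. No test was run on the summed level, since the peaks in it were selected on the same values.

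Siblings were alike in this level in some families and far apart in others. Both lay on the same side of the median of all fish in 10 of 15 pairs, 7 of 8 father-reared and 3 of 7 orphaned, with the median fish itself counted as low; the difference between care groups was not tested. Father-reared replicates 9 and 10, a brother and sister, were both high, at 11993 and 12847 CPM, and father-reared replicates 15 and 16 both low, at 7007 and 6399 CPM. The 3 pairs farthest apart were all orphaned: orphaned replicates 14 and 15 read 11919.5 and 6286 CPM, orphaned replicates 10 and 11 read 5285 and 9879.9 CPM, and orphaned replicates 8 and 9 read 10945 and 6291 CPM. The median ratio of the higher to the lower sibling was 1.21-fold over 15 pairs, against 1.32-fold over 105 pairs of opposite sex from different families of the same care group.

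The first component had r = 0.12 with total counts and r = 0.41 with the share of reads in the strongest 10% of peaks, a measure of how concentrated a library's signal is (31 libraries, values descriptive, since every point shares its counts with the peaks). Its rank order followed into peaks the selection did not keep. Among the 22006 peaks that passed the level limits and were not chosen, 2679 (12.2%) had r of at least 0.5 with the first component and 211 had at least 0.8. On groupXIX 67 of 1044 peaks at the same level had r of at least 0.5 and 7 had at least 0.8. On unplaced scaffolds the counts were 181 and 24 of 2273.

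The second component set libraries apart in another way. Father-reared replicates 15 and 16, brother and sister, lay at the low end, at -0.42 and -0.51, with all other fish between -0.27 and 0.26. It had r = -0.87 (Spearman's rho = -0.86) with the share of reads in the strongest 10% of peaks, and r = -0.84 without the 2 libraries of the most extreme share. Removing each library's trend with peak strength changed the choice of peaks, and 860 of those described here were kept. The first component then held 28.9% of the variance, against 36.6% without the removal. In that changed choice 565 peaks had r of at least 0.5 with the first component. The likeness of siblings described below was 0.30 in the other peaks, as without the removal. Whether the concentration of reads underlies either component was not tested.

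The correlation of pairs was also read by distance. That the co-varying set stays correlated between linkage groups, and the other peaks do not, follows from how they were split, so only the course with distance within each set is described. In the co-varying set the median correlation of a pair was 0.75 for peaks under 2 kb apart, 0.79 at 2 to 10 kb and still 0.71 for peaks on different linkage groups (155087 pairs). Among the other peaks, it was 0.81 under 2 kb (12 pairs) and 0.75 at 2 to 10 kb (43 pairs), then 0.32 at 10 to 100 kb (115 pairs), 0.05 at 0.1 to 1 Mb and 0.02 on different linkage groups. These pairs join peaks that were both chosen for a high SD. The nearest unchosen neighbour within 10 kb had a median correlation of 0.09 with an other peak (235 peaks) and 0.35 with a co-varying peak (357 peaks). For neighbouring peaks of which neither was chosen it was 0.20. Neighbours that shared a wide spread were themselves chosen and left out here, so nothing is read about near neighbours in general. Between a peak of each set within 10 kb of the other, the median was -0.21 (5 pairs). These are descriptions over 31 libraries, and pairs share peaks.

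**Figure D3:**
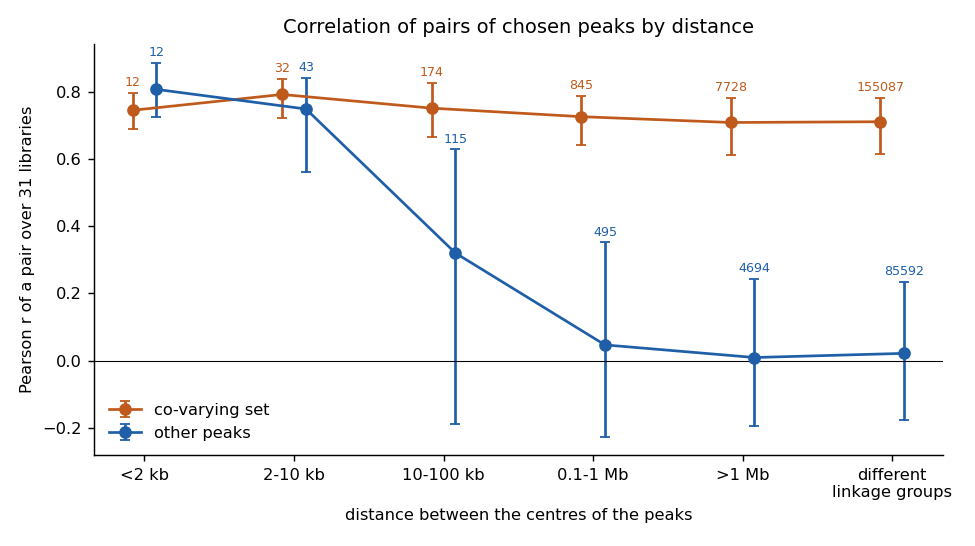
Median correlation over 31 libraries (points) with the interquartile range (bars) for pairs of chosen peaks by distance, in the co-varying set (orange) and among the other peaks (blue); numbers give the pairs. The orange line stays between 0.71 and 0.79 at every distance, and the blue line falls from 0.81 to 0.02.

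Chosen peaks stood near each other more often than their share of peaks. Of 1328 neighbours within 10 kb that had passed the level limits, 208 (15.7%) were themselves chosen, against 4.35% of all peaks that passed; the share was 21.3% around the other peaks and 11.8% around co-varying peaks. In all, 168 of the 1000 peaks lay within 10 kb of another, in 73 runs. Of these runs, 40 held co-varying peaks only, 28 other peaks only and 5 both kinds.

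The largest run held 5 peaks from groupIV 25573324 to 25589762, none of them co-varying, with a median pair correlation of 0.53. Tighter runs were found at groupXI 10706755 to 10727977 (4 peaks, median pair correlation 0.85), groupXVIII 7562496 to 7585457 (4 peaks, 0.84) and groupXX 2493209 to 2510884 (3 peaks, 0.89). Per linkage group, the chosen share of the peaks that passed ran from 2.77% on groupXV to 5.91% on groupXXI. GroupIX was richest in other peaks, with 47 of its 68. By windows of 1 Mb, the most crowded was groupXVI 11 to 12 Mb with 12 chosen peaks, 10 of them co-varying. GroupIV 25 to 26 Mb held 11, groupXXI 8 to 9 Mb held 10, all co-varying, and groupXVIII 7 to 8 Mb held 9. GroupIX 16 to 17 Mb held 10, none co-varying.

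The windows also differed in how their leading peak behaved. At groupXXI 8422876 the correlation with the first component was 0.96, and values ran from 11.8 CPM in orphaned replicate 7 to 41.1 CPM in orphaned replicate 14. At groupXVI 11137488 it was 0.92, with 8.71 CPM in orphaned replicate 15 and 27.6 CPM in orphaned replicate 3. The leading peaks of the other 3 windows did not follow it. At groupIX 16087137, 9 fish read 11.4 to 16.8 CPM and 22 read 39.2 to 96.1 CPM, with no fish between. At groupIV 25616286 values ran from 6.54 to 40.4 CPM (median 19.7 CPM), and at groupXVIII 7585057 from 6.17 to 34.8 CPM (median 10.9 CPM).

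The widest-varying peak of all, groupXIII 19760310, had a low and a high level. It read 1.33 to 4.10 CPM in 12 fish, 5.38 CPM in father-reared replicate 4 and 23.8 to 123 CPM in the other 18, a 92.5-fold range with an SD of 2.21 log2 units. Low and high fish occurred in both care groups, both sexes and within families: orphaned replicate 14 read 1.37 CPM and the sister, orphaned replicate 15, 62.7 CPM. Peaks at groupXIII 19762054 and 19763687, within 3.38 kb of it, had the next highest SDs, 1.21 each, with pair correlations of 0.92 to 0.98 across the 3 peaks. Their ranges were 1.54 to 30.2 CPM and 3.27 to 59.5 CPM.

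The other peaks among the 10 with the highest SD ranged from graded to stepped. GroupX 1072419 ran from 2.58 to 36.2 CPM, and its widest step took 8.62% of the range. GroupXX 315573 ran from 1.58 to 29.3 CPM, and groupX 14756438 from 2.36 to 43.1 CPM. At groupXI 4403191, 6 fish read 48.5 to 81.1 CPM and the others 4.52 to 19.8 CPM, a step of 31.7% of the range, near the 33.7% at groupXIII 19760310. At groupII 3399910, described next, it was 32.1%. Among the 6, father-reared replicates 11 and 12 were siblings, whereas orphaned replicate 9 read 81.1 CPM and the brother, orphaned replicate 8, 4.52 CPM.

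A group of peaks on different linkage groups rose in the same few fish. GroupIX 15916895 read 95.2 CPM in orphaned replicate 15 and 52.1 CPM in the brother, orphaned replicate 14. It read 50.1 CPM in orphaned replicate 10, 32.5 CPM in orphaned replicate 6 and 30.8 CPM in father-reared replicate 3, and 3.61 to 16.2 CPM in the other 26 fish, around an overall median of 7.97 CPM. The same fish stood out at groupII 3399910 (69.1 and 42.5 CPM in orphaned replicates 15 and 14, median 6.67 CPM), groupXVII 12415540 (65.0 and 37.4 CPM, median 6.93 CPM), groupIX 10630484 (61.2 and 41.5 CPM, median 8.02 CPM) and groupIX 15811710 (357 and 250 CPM, median 40.0 CPM). In all, 8 other chosen peaks had r of at least 0.8 with groupIX 15916895; 6 of them lie on groupIX and the correlation with groupII 3399910 was 0.97. No unchosen peak that passed the level limits on the 20 linkage groups reached 0.8, and 5 peaks at the same level on groupXIX or scaffolds did. A peak that rises this far in a few fish has a high SD and is chosen. Nothing is therefore read from the absence among unchosen peaks. The limit of 0.8 was set after these values were seen, and whether these peaks share sequence was not tested.

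**Figure D4:**
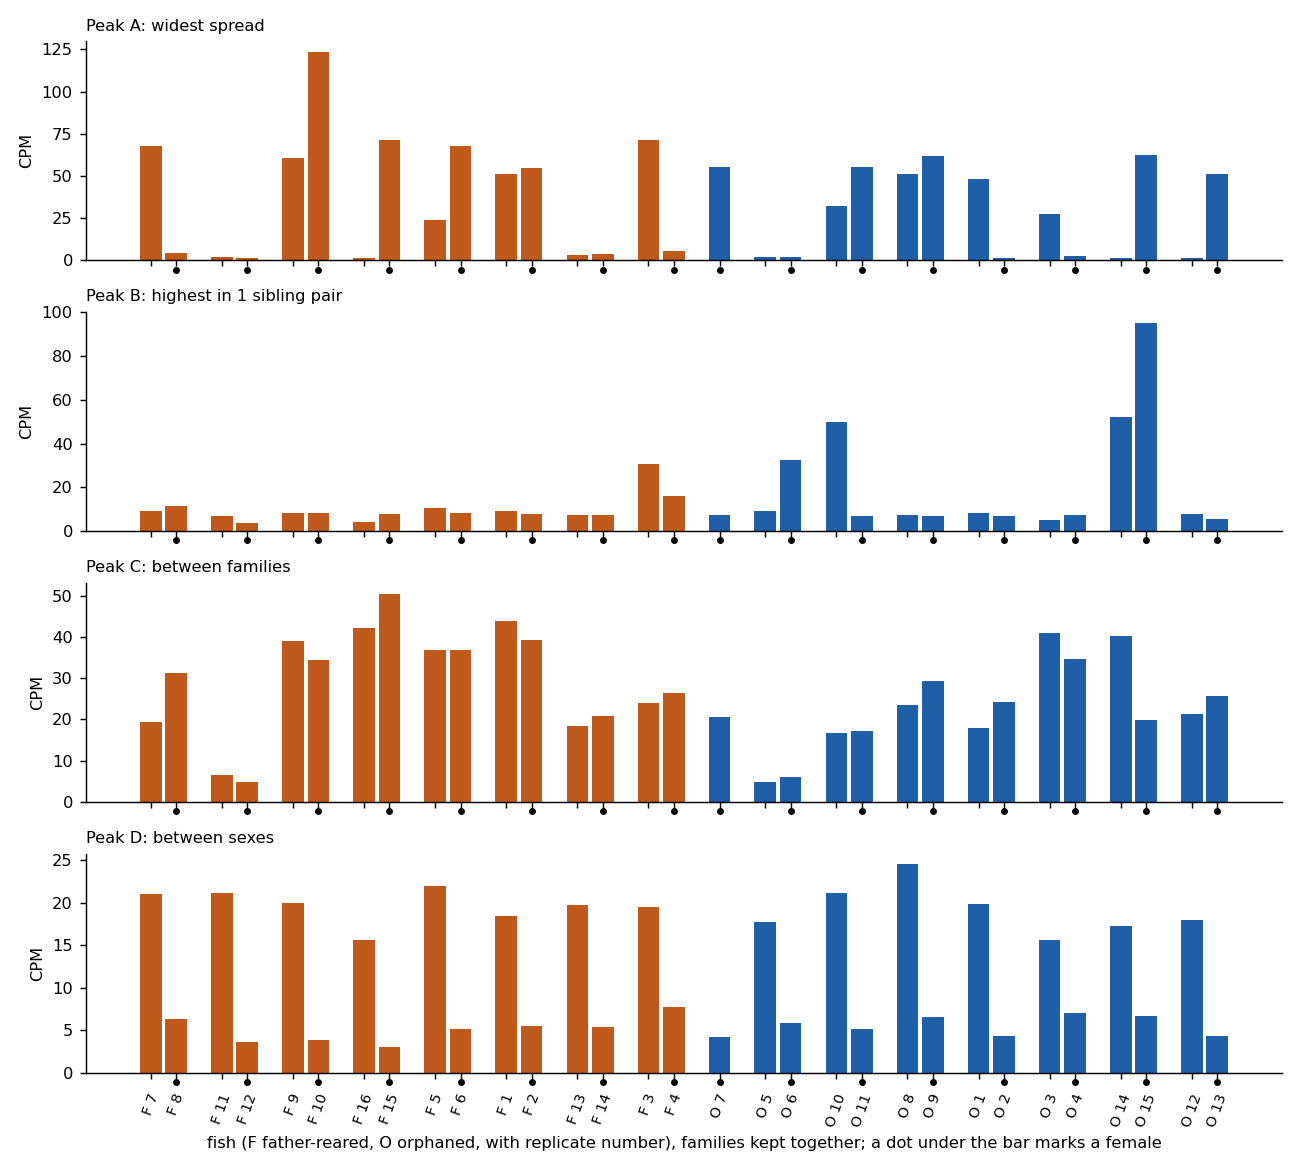
CPM in each of the 31 fish (orange, father-reared; blue, orphaned; dot, female; siblings adjacent) at groupXIII 19760310 (A), groupIX 15916895 (B), groupV 322722 (C) and groupXVI 1317033 (D). Bars in A are near 0 or above 20 CPM with siblings often unlike, B stands highest in orphaned replicates 14 and 15, siblings lie close in most families in C, and in D every male lies above every female.

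Brother and sister were alike in the pattern over the other peaks. Likeness was measured as the correlation, across peaks, of the deviations of 2 fish from the mean of their care-by-sex group. Such deviations sum to 0 over each group, which pushes the mean over non-siblings to the opposite sign of the sibling mean. The non-sibling values are therefore given as a description and are no independent contrast. Over all 1000 peaks the 15 sibling pairs averaged 0.24 (SD 0.26), 13 of them above 0, and the 105 non-sibling pairs averaged -0.03 (SD 0.24). In the other peaks siblings averaged 0.30 (SD 0.18), from 0.04 to 0.51, with 15 of 15 pairs above 0, and non-siblings -0.04 (SD 0.20). In the co-varying set siblings averaged 0.08 (SD 0.10), with 12 of 15 above 0. A correlation across peaks centres each fish, which takes out the rise and fall that the co-varying peaks share, so 0.08 and 0.30 do not measure the same kind of likeness. Without that centring, an alternative added after the data were seen, siblings averaged 0.17 (SD 0.59, 10 of 15 above 0) in the co-varying set and non-siblings -0.02 (SD 0.57). In the other peaks siblings then averaged 0.30 (SD 0.18, 15 of 15 above 0) and non-siblings -0.04 (SD 0.21). Unchosen peaks that passed the level limits gave 0.08 (SD 0.17), with 9 of 15 above 0. Their lower spread was set by the selection, which also makes counting error a larger share of their variance.

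The pairs that were most alike in the other peaks were father-reared replicates 9 and 10 (0.51) and 5 and 6 (0.50). The least alike were father-reared replicates 3 and 4 (0.04) and orphaned replicates 10 and 11 (0.06). Because siblings have neighbouring library numbers, fish with neighbouring numbers from different families were compared in the same way, and these 14 pairs averaged -0.03 (SD 0.17) in the other peaks. Most of these pairs joined a father-reared with an orphaned fish, whereas siblings share a care group. The pairs are thus not matched to siblings, and family and library order still cannot be told apart. Within the 3 stretches of library numbers siblings averaged 0.29, 0.28 and 0.34 and non-siblings 0.03, -0.02 and -0.09. Peak by peak, the correlation of brothers with sisters over the 15 pairs exceeded 0.5 at 20.8% of the other peaks, 3.49% of the co-varying peaks and 4.31% of the unchosen peaks. Selection used a spread that includes differences between families, and the split into sets used the same values. The gaps between these sets are therefore given as a description.

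**Figure D5:**
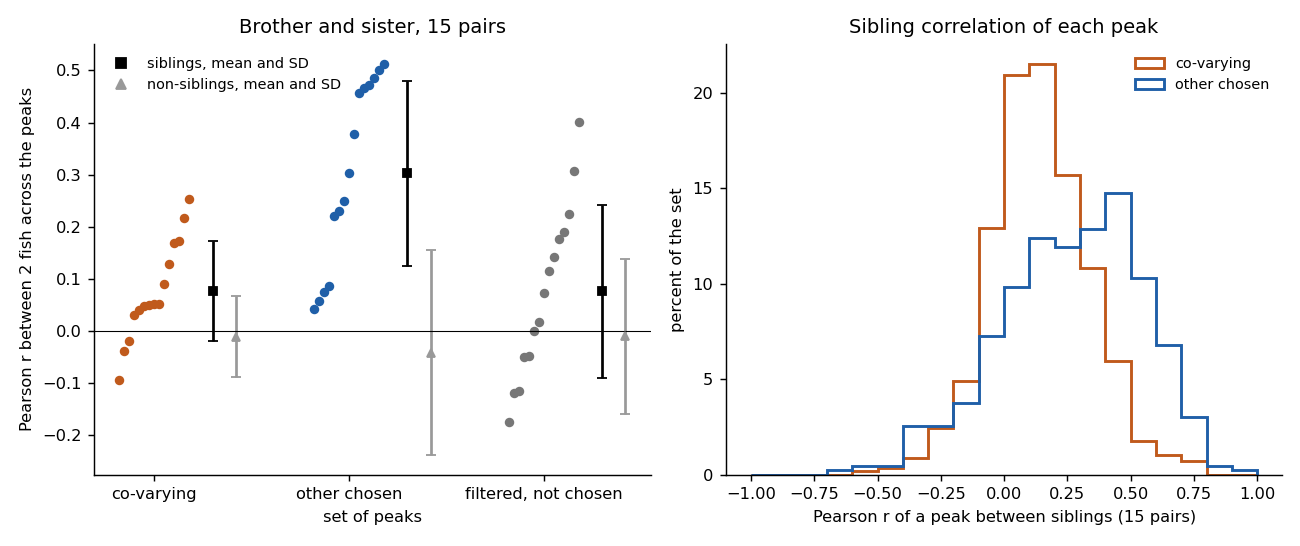
Left, the correlation across peaks between brother and sister for each of 15 pairs (points) in 3 sets of peaks, with the mean and SD over pairs (squares) and over 105 non-sibling pairs (triangles). Right, the correlation over 15 pairs of single peaks, as the percent of each set: the other peaks reach higher values than the co-varying set.

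The test for differences between families depended on how the spread of a peak was estimated. With edgeR's quasi-likelihood F test, which shares the spread between peaks, 283 of the 1000 peaks passed at a Benjamini-Hochberg adjusted p of 0.05 (183 other and 100 co-varying peaks), beside 316 of the 23006 peaks that passed the level limits (1.37%) and 1290 of all 100808 tested (1.28%). The selection was made on the whole spread over fish, which includes differences between families, so nothing is read from the size of this count. When each peak was tested with its own spread, 1 of the 1000 passed, which was also the only one of the 23006 (0.00435%) and 1 of 8 among all tested (0.00794%). DESeq2 called 113, beside 136 of the 23006 (0.591%) and 467 of all 100808 (0.463%). A robust prior on the spread called 221, beside 279 (1.21%) and 1050 (1.04%). The count also moved with single fish, to 541, 525 and 513 without orphaned replicates 15, 11 and 14. These fits kept the dispersion trend of the fit to all 31 libraries and estimated only the quasi-likelihood spread again. A sibling left alone in its family no longer adds to that spread. What the rise reflects was not tested.

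The peak that passed either way was groupV 322722. It read 50.5 and 42.2 CPM in father-reared replicates 15 and 16, 43.8 and 39.2 CPM in father-reared replicates 1 and 2, and 4.73 and 5.99 CPM in orphaned replicates 5 and 6. Father-reared replicates 11 and 12 were also low, at 6.45 and 4.92 CPM. Siblings were close at most levels, with a correlation over the 15 pairs of 0.90, and the widest step, from the 4 lowest fish to the rest, took 39.6% of the range. The adjusted p was 2.3e-12 in edgeR's quasi-likelihood test and 0.018 with the peak's own spread, in an F test with Benjamini-Hochberg adjustment over all peaks.

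The other 4 peaks with the lowest family p in edgeR's test did not pass with their own spread. GroupXX 9332637 had the next closest siblings, with a correlation of 0.77: orphaned replicates 8 and 9 read 24.2 and 15.8 CPM, and orphaned replicates 14 and 15 read 4.61 and 2.61 CPM (adjusted p = 2.4e-11 in edgeR's test and 0.33 with its own spread). The other three were groupIX 15916895, groupII 3399910 and groupXVII 12415540, described above, with adjusted p of 0.71 to 0.78 with their own spread.

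Differences between the sexes were called at few peaks. In edgeR's quasi-likelihood test 14 of the 1000 passed, each higher in males and each among the other peaks. The background was 19 of the 23006 peaks that passed the level limits (0.0826%), 18 of them higher in males (0.0782%), and 2337 of all 100808 peaks tested (2.32%), a total that includes groupXIX. Log2 differences of the 14 ran from 0.38 to 1.89 with a median of 0.63, against 0.05 over all 23006. The 14 were called for this difference, among peaks selected on a spread over fish that includes differences between the sexes. Nothing is therefore read from the size of the count or of the differences against the background. At 5 of the 14 the brother was higher in all 15 families, and across the 14 in 10 to 15 families. At 2 of the 14 males and females did not overlap. Overlap and family counts were made for the 14 called peaks only, without a share over all peaks, and are descriptive. With family as a fixed replicate block, which compares brother with sister, edgeR called 19 of the 1000, 17 higher in males and 2 lower, beside 23 of the 23006 (0.1%) and 2384 of all tested (2.36%). The 2 lower in males were groupXVIII 7585057 (median 10.0 CPM in males and 20.9 CPM in females, sister higher in 12 of 15 families) and groupXX 315573 (13.8 and 17.9 CPM, sister higher in 11 of 15). Their edgeR adjusted p was 0.0013 and 0.007 with the block and 0.62 and 0.83 without it.

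GroupXVI 1317033 had the lowest p. It read 15.6 to 24.5 CPM (median 19.7) in 15 males and 3.06 to 7.66 CPM (median 5.27) in 16 females, a log2 difference of 1.89 ± 0.09 (SE) with an adjusted p of 3.9e-24 in edgeR's quasi-likelihood test. Every male lay above every female. GroupXIII 8061696 was the other peak without overlap, at 16.9 to 28.7 CPM in males and 3.41 to 14.7 CPM in females (log2 difference 1.43 ± 0.14 SE, edgeR adjusted p = 5.3e-12). It lies in a run with groupXIII 8052744 and 8054282, which also passed, and groupXIII held 4 of the 14.

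At groupXV 326432 males read 11.9 to 25.3 CPM and females 7.07 to 14.3 CPM, so the groups overlapped, although the brother was higher in 15 of 15 families (log2 difference 0.93 ± 0.10 SE, edgeR adjusted p = 2.4e-11). GroupXII 18359364 read 7.97 to 29.7 CPM in males and 2.37 to 11.0 CPM in females (1.23 ± 0.16 SE, edgeR adjusted p = 9.5e-09). GroupVIII 10059097 read 15.1 to 40.5 CPM and 9.84 to 25.8 CPM (0.80 ± 0.11 SE, edgeR adjusted p = 1.5e-07). The remaining 9 overlapped, with log2 differences of 0.38 to 0.80. With groupXIX left out before filtering and adjustment, 8 of the 1000 passed, beside 9 of the 23006 (0.0391%) and 88 of the 96460 then tested (0.0912%).

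Paternal care, the question of the design, was not detected at any of these peaks. In edgeR's quasi-likelihood test 0 of 1000 passed, as did 0 of all 100808 tested (0%) and 0 of the 23006 (0%); DESeq2 and limma-voom with family as a random replicate block also called 0. At an unadjusted p under 0.05 were 69 of the 1000 (6.9%), against 2069 of the 23006 (8.99%), and the lowest adjusted p was 0.38. The median log2 difference, father-reared minus orphaned, was 0.01 over the 1000 and 0.09 over the unchosen peaks that passed the level limits. None of the 69 was a co-varying peak, so they made up 16.2% of the 427 other peaks. Among the 69, 36 were higher in father-reared fish, against 1929 of the 2069. With each library's trend with peak strength removed, an unadjusted p under 0.05 was reached by 59 of the 1000 and 1023 of the 23006. Which of these shares was larger thus depended on the processing. The split into sets was made after the values were seen, and these differences in share were not tested.

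The 5 peaks with the lowest care p give the size of difference that went uncalled. GroupII 14550436 read 7.56 to 21.7 CPM (13.8 ± 3.98, SD, n = 16) in father-reared and 5.79 to 15.4 CPM (9.42 ± 2.77, SD, n = 15) in orphans, a difference of 0.60 ± 0.12 SE on the log2 scale with an edgeR adjusted p of 0.38. GroupI 19249555 was the reverse, at 9.15 ± 1.48 CPM (SD, n = 16) and 13.4 ± 3.51 CPM (SD, n = 15), with a log2 difference of -0.51 ± 0.11 SE and an edgeR adjusted p of 0.39. GroupI 7088644 (0.50 ± 0.11 SE), groupVII 2509630 (0.55 ± 0.14 SE) and groupV 9664155 (0.61 ± 0.16 SE) had edgeR adjusted p of 0.43, 0.59 and 0.67. The ranges of the 2 groups overlapped at all 5.

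Brain side was called at 1 peak, and only with a replicate block. Without the block, edgeR's quasi-likelihood test passed 0 of 1000, 0 of the 23006 (0%) and 0 of all tested (0%), DESeq2 called 0, and 62 of the 1000 had an unadjusted p under 0.05, against 929 of the 23006. With family as a fixed replicate block 1 of the 1000 passed, groupII 3399910 (6.99 ± 1.45 CPM in 13 left and 15.7 ± 18.1 CPM in 18 right sides, SD, edgeR adjusted p = 0.022). It was also 1 of the 23006 (0.00435%) and 1 of 8 among all 100808 (0.00794%). In this blocked test 118 of the 1000 had an unadjusted p under 0.05, against 691 of the 23006. The 1000 were chosen for their spread over fish, so nothing is read from the 118. The right-side mean of groupII 3399910, over all fish, holds orphaned replicates 14 and 15, siblings both read on the right side. Among families read on both sides, the right and left siblings had 27.5 and 8.70 CPM in father-reared replicates 3 and 4. They had 26.5 and 7.22 CPM in orphaned replicates 6 and 5, and 38.0 and 5.97 CPM in orphaned replicates 10 and 11. In the other such families siblings were close, and the left was the higher only with father-reared replicates 2 and 5. Without the block the lowest p belonged to groupIV 228740 (7.35 to 17.1 CPM left, 7.01 to 35.4 CPM right, log2 difference left minus right -0.51 ± 0.13 SE), groupXVIII 7562496 (-0.46 ± 0.12 SE) and groupXXI 463767 (0.54 ± 0.14 SE), each with an edgeR adjusted p of 0.99.

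The most negative pair on different linkage groups, groupXIV 44851 and groupXV 14161457, had r = -0.84 over 31 libraries; the next were groupII 3399910 with groupIX 4054763 (r = -0.81) and groupXI 215 with groupXII 7050303 (r = -0.80). The highest pair under 10 kb outside groupXIII was groupXVII 11441683 with 11445640 (r = 0.95), peaks that averaged 51.7 and 214 CPM.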

How the data were processed

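Brain ATAC-seq libraries of 31 fish were analysed. Tools listed in the submitters' processing notes, with no role stated, include DiffBind 3.14.0, MACS2 2.2.5, Bowtie2 2.3.5.1 and Picard 2.10.1. Not given in the sources used here are the genome build, how duplicates were handled and any Tn5 shift. The authors deposited raw counts per peak and library for 1 shared set of 102149 peaks. Per the labels, libraries were made by PCR, so counts are not independent molecules.

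CPM used totals off groupXIX, with a pseudocount of 0.5 on the log2 scale. Tests used edgeR 4.0.16 in R 4.3.3 (quasi-likelihood, TMM, filterByExpr with a minimum count of 10), Benjamini-Hochberg adjusted over 100808 peaks, threshold 0.05. Models were sex and family for family (14 contrasts within care, residual df 14, prior df 57.9), sex and care for sex and care, and these with side for side. Scripts were tested on simulated data. Alternatives used DESeq2 1.42.0 and limma 3.58.1 (voom) and other scalings, filters and libraries. The members and lists were chosen with earlier results of these data known. Named peaks followed a rule on SD, p, windows and correlation; those that followed groupIX 15916895, and the sex peaks beyond the first 5, were added after their values were seen. P-values take fish as independent, although siblings share a family and fish of different families may share a parent.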

Additional observations from a re-analysis of the deposited data

Results flagged for a closer look

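Values were flagged where 1 fish stood apart from the others of its care-by-sex group of 7 or 8 by Dixon's criterion, over 152 groups of values from library measures and named peaks. Of these, 15 were flagged (9.87%), while chance flags about 1 in 20, and the named peaks were picked for wide spread or low p.

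Father-reared replicate 16 stood apart in the mean distance of the other peaks from their medians, at 0.529 log2 units. At groupX 14756438 father-reared replicate 12 was low, at 2.62 CPM, and orphaned replicate 10 was low, at 4.28 CPM.

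Peaks of the group that rises with groupIX 15916895 were flagged in father-reared replicate 3, the highest of 8 father-reared males: 30.8 CPM there, 149 CPM at groupIX 15811710, 27.5 CPM at groupII 3399910 and 25.7 CPM at groupXVII 12415540. At groupIX 15811710 father-reared replicate 12 was low, at 22.0 CPM.

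At groupV 322722 both fish of 2 families were low in their groups: father-reared replicates 12 and 11 at 4.92 and 6.45 CPM, and orphaned replicates 6 and 5 at 5.99 and 4.73 CPM. At groupX 1072419 orphaned replicate 4 read 4.18 CPM, and at groupI 7088644 orphaned replicate 10 read 7.05 CPM. At groupIX 16087137 father-reared replicate 12 read 15.1 CPM, within the low level of 11.4 to 16.8 CPM described above, which fish of other groups share.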

How the results depend on the processing

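For family, the 283 calls became 113 with DESeq2 and 1 with no sharing of spread between peaks; the cause was not tested. The other settings gave 202 to 388, with 221 under a robust prior and 202 without father-reared replicates 15 and 16, and leaving out each library in turn gave 201 to 541. For sex, the 14 calls became 8 with groupXIX left out, 10 with no sharing of spread between peaks and 11 under a robust prior. They were 19 with family as a fixed replicate block (17 higher in males), and 12 to 15 with a library left out. For care the count stayed at 0 under every setting run, a random replicate block for family included. For side it was 0 except with family as a fixed replicate block, where 1 peak passed, groupII 3399910 (edgeR adjusted p = 0.022).

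Of the 1000 peaks, a limit of 5 CPM kept 208 and one of 20 CPM kept 164, since each draws from another pool; the other settings kept 802 to 940 and leaving out a library 922 to 987. The count within 10 kb of another, 168, became 317 and 107 at those limits, 64 with 500 peaks and 402 with 2000, and 153 to 176 without a library. The first component's share of 36.6% was 22.3% at 5 CPM and 28.9% with the library trend removed, and 33.9% to 38.4% without a library. The co-varying set held 511 to 596 peaks, and 565 to 574 without a library. Sibling correlations moved by less than their SD over pairs: over all peaks 0.20 to 0.28 without a library, in the co-varying set 0.06 to 0.09 and in the other peaks 0.28 to 0.32.

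Library stretch as a covariate left 13 family contrasts, tied across stretches by 1 family that spans a pair of them, and gave 236 family calls. Depth limits the precision of single peaks: the median count over the 1000 peaks was 33 in the lowest library and 150 in the highest. Family is inferred, care was given to families, and batches are not listed.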
